A study of Rattus norvegicus with 12 samples.

Results

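The interleukin-1 (IL-1) family cytokines and receptors were followed in cultured rat theca-interstitial cells. The 10 genes were taken by symbol from the 30045 rows of the deposited count table: the cytokine genes Il1a, Il1b, Il18 and Il33, the antagonist gene Il1rn, and the receptor genes Il1r1, Il1r2, Il1rap, Il1rl1 and Sigirr. All 10 were present and all 10 passed the filter on low counts, as did 17330 rows in all.

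Theca-interstitial cells form the wall and stroma of the ovarian follicle and make its androgens. They came from wild type female Sprague Dawley rats at postnatal day 30 and were grown on human fibronectin. Of 12 cultures, 4 received lipopolysaccharide (LPS), a bacterial cell wall component, at 1 µg/ml, 4 received rat IL-1β, at a dose not given in the sources used here, and 4 received vehicle (control), each for 48 h. Polyadenylated RNA was sequenced with a kit that keeps strand, and whether the 4 cultures of a group stem from different animals or cell isolations is not stated. The p-values therefore measure only the spread between these cultures, which may be technical.

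Family members share a common receptor design. The agonists IL-1α and IL-1β bind the signalling receptor encoded by Il1r1, which then recruits the accessory chain encoded by Il1rap and starts a kinase cascade through MyD88 that ends in NF-kB. The antagonist encoded by Il1rn occupies the receptor without signalling, and the decoy encoded by Il1r2 binds agonist without signalling. Il1rl1 encodes ST2, the receptor for the alarmin IL-33, which uses the same accessory chain, and Sigirr encodes a receptor that dampens signalling. In the ovary IL-1 is known for its part in the inflammation-like events around ovulation.

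Total counts per library were 25643226 to 28698783 (LPS), 23193408 to 26836323 (IL-1β) and 20873934 to 32090924 (control). The cultures held transcripts of several cell types. The 6 theca markers, such as Star and Cyp11a1, were all detected and summed to 431 to 495 CPM (read counts scaled to library size, with TMM factors) with LPS, 572 to 622 with IL-1β and 202 to 233 in control. In control that sum was mostly Star and Nr5a1 (means of 141 and 70.6 CPM). Cyp17a1 and Insl3 had 57 and 25 reads over the 4 control libraries. The 6 granulosa markers summed to 482 to 601 CPM with LPS, 626 to 784 CPM with IL-1β and 461 to 505 CPM in control. Most of it was Inha and Inhba. Against control 2 were higher and 1 lower with LPS, and 3 higher and 2 lower with IL-1β. Of all genes tested, 22.5% were higher and 20.0% lower with LPS, and 24.7% and 23.0% with IL-1β. The 12 macrophage markers summed to 99.7 to 108 CPM with LPS, 103 to 111 CPM with IL-1β and 144 to 154 CPM in control. The 6 endothelial markers summed to 215 to 291 CPM with LPS, 308 to 354 CPM with IL-1β and 142 to 169 CPM in control, and the 6 smooth muscle markers to 1786 to 2032 CPM with LPS, 1475 to 1676 CPM with IL-1β and 4625 to 5018 CPM in control. The smooth muscle sum was mostly Acta2 and Tagln. Of those 6, 5 were lower than in control with each treatment and 1 was higher with IL-1β. Des averaged 62.7 CPM with LPS, 84.4 CPM with IL-1β and 68.3 CPM in control. Of 6 neutrophil markers 0 passed the filter, and their sums stayed at 0.525 to 0.779 CPM with LPS, 0.385 to 1.15 CPM with IL-1β and 0.560 to 1.22 CPM in control. On the second principal component, with 12.5% of the variance, LPS replicates 3 and 4 (24.7 and 21.3) lay apart from LPS replicates 1 and 2 (10.5 and 12.6), so results with LPS are also given without that pair.

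The promoters of Il1a, Il1b and Il1rn are shown because the agonist genes Il1a and Il1b, neighbours on rat chromosome 3, had the largest changes with LPS among the 10, while Il1rn, elsewhere on that chromosome, was not past the threshold there. Each stretch is 300 bases from RefSeq on build GRCr8, from 250 bases before the annotated start to 50 bases after it, in the direction of the gene. Capitals mark TATAAA on the gene's strand, the core of a TATA box, and, on either strand, GGG and CC with any 5 bases between them, the letters that many NF-kB sites share. The places of Il1a (minus strand), Il1b (minus strand) and Il1rn (plus strand) are chr3:136989968-136990267, chr3:137036532-137036831 and chr3:27520072-27520371.
Il1a: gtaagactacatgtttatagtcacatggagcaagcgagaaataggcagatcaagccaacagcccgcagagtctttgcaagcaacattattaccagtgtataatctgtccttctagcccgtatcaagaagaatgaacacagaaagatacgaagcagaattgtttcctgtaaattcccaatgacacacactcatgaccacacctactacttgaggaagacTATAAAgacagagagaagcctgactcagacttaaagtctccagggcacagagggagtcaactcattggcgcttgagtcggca
Il1b: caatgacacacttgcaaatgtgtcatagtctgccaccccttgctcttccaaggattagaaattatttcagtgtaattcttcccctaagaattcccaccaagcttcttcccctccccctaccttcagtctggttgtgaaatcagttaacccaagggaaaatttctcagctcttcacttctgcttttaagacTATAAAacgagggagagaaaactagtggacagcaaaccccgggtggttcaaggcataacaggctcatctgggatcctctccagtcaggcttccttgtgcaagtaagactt
Il1rn: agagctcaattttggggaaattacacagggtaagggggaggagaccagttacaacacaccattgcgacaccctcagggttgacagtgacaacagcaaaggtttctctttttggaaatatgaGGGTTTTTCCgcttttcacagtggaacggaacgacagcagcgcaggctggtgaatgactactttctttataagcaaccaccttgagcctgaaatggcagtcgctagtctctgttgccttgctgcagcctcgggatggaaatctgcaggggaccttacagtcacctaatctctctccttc

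Both agonist promoters held TATAAA, 32 bases before the annotated start of Il1a and 60 bases before that of Il1b, and neither held the NF-kB type motif. In Il1rn the letters were GGGTTTTTCC, beginning 129 bases before the start, and TATAAA was not in the window. Promoters matched for 9 of the 10 genes, and the NF-kB type motif was found in 5 of the 9 and in 47.3% of all 33469 promoter windows of this length. Of the remaining matched genes, Il1r1 had it at 1 place, Il18 at 1, Sigirr at 2 and Il1rap at 5 or 8 in its 2 listed windows, while Il1rl1 and Il33 had it at 0. TATAAA, a motif chosen after the sequences were seen, stood in 8.8% of all windows and, outside Il1a and Il1b, in 1 of the 2 windows of Il33. A match describes letters and not a bound site.

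The comparison of LPS with control asked how a bacterial stimulus shifts these genes. Transcripts of both IL-1 agonists rose, and transcripts for the antagonist, the signalling receptor and the accessory chain were not past the threshold. Of the 10 genes 4 rose (Il1a, Il1b, Il33 and Il1rl1) and 0 fell at an adjusted p under 0.05 in edgeR's quasi-likelihood test, where 42.5% of all genes tested were called, 22.5% higher and 20.0% lower. The number called (4 of 10, or 40%) was therefore near the background. The count of genes lower was also 0 at an unadjusted p under 0.05, with DESeq2 and with limma-voom, all on the same libraries. The median log2 fold change of the 10 was 0.45, against 0.01 over all genes. CPM carry no correction for transcript length, so levels of different genes are not ranked.

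Il1b, which encodes a cytokine that must be cut to become active, was at 11.5, 10.9, 11.97 and 11.2 CPM in the LPS cultures and at 1.14, 0.663, 0.830 and 0.922 CPM in control. Every LPS culture lay above every control culture. These values rest on 307 to 321 reads per LPS library and 17 to 36 per control library. The means of 11.4 ± 0.455 CPM with LPS and 0.889 ± 0.1996 CPM in control (SD, n = 4 each) gave a log2 fold change of 3.65 ± 0.14 (SE here and below, adjusted p = 5.41e-18), larger in size than that of 99.9% of genes. Without LPS replicates 3 and 4 the value was 3.62.

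Il1a, whose product acts without being cut and can also be released from damaged cells, was at 7.90, 7.94, 10.9 and 9.03 CPM with LPS and at 1.43, 1.13, 1.17 and 1.02 CPM in control. The groups did not overlap, and LPS replicates 3 and 4 were its 2 highest cultures. The fold was 7.45 (log2 2.90 ± 0.14, adjusted p = 6.27e-16), and without LPS replicates 3 and 4 the log2 value was 2.73. Over the 12 cultures the genes with the pattern most like Il1a were Icam1 (Pearson r = 0.989), Gbp5 (0.988) and Ubd (0.983). They were sought among 11535 genes with an informative symbol and a mean of at least 2 CPM. For Il1b they were Ubd (0.973), Gbp5 (0.971) and Il1a (0.967), and these correlations share the same libraries and group means.

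**Figure D1:**
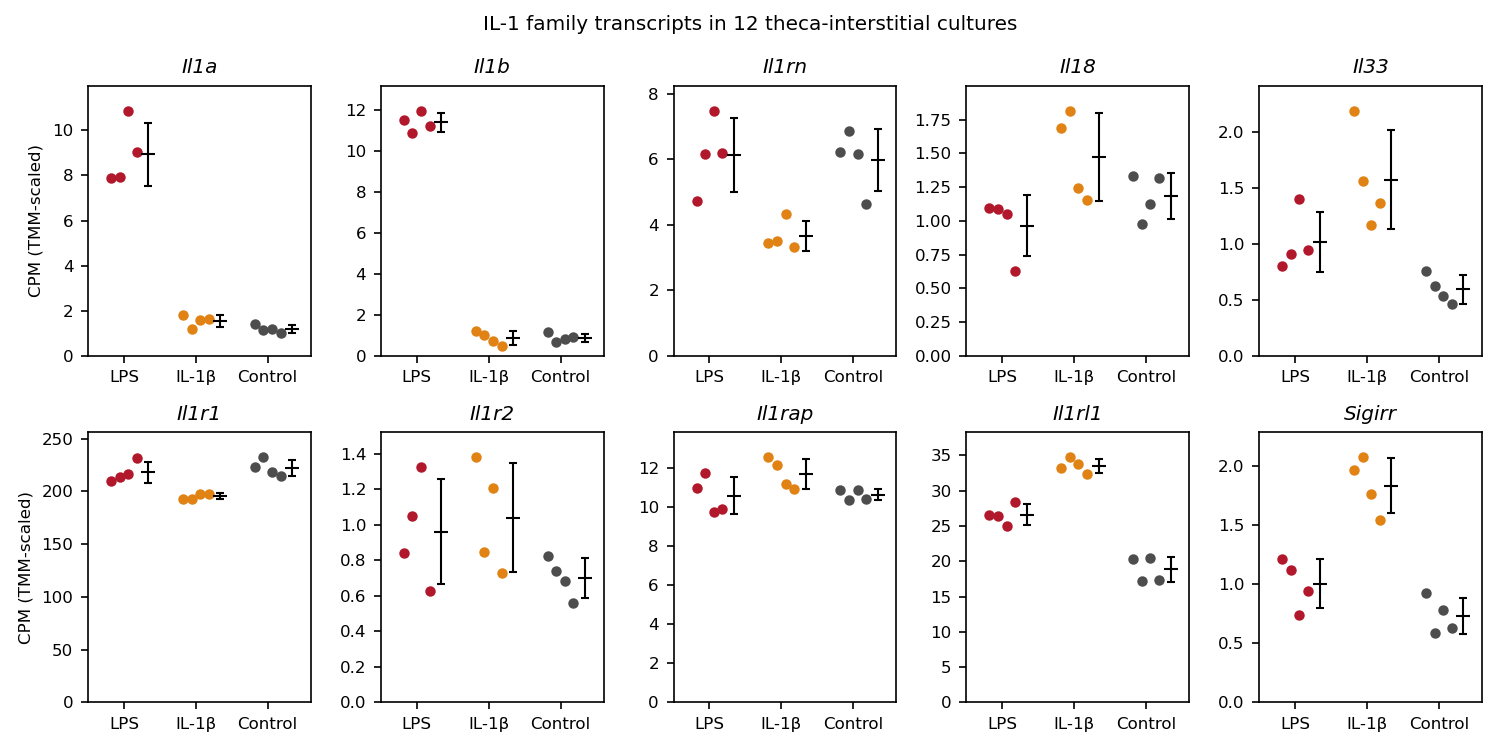
Level of each transcript in CPM (TMM-scaled, y axis, each panel with its own scale from 0) for 4 cultures each with LPS, IL-1β and control, with 1 point per culture in order of replicate and the mean ± SD beside them. LPS points of Il1a and Il1b stand clear of both other groups, Il1rn is lowest with IL-1β, and Il1rl1 and Sigirr are highest with IL-1β.

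Il1rn, the antagonist gene, was at 4.72, 6.16, 7.48 and 6.19 CPM with LPS and at 6.22, 6.87, 6.15 and 4.64 CPM in control. The groups overlapped over most of their range. Its log2 fold change was 0.05 ± 0.13 (adjusted p = 0.812), with a 95% interval from -0.22 to 0.31, and it was -0.12 without LPS replicates 3 and 4. Within each library the count of Il1rn was 0.411 to 0.625 times that of Il1b with LPS and 5.04 to 10.4 times in control. This ratio of counts takes no account of transcript length, so its difference between groups can be read and its level cannot.

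Il33, which encodes a nuclear cytokine released from injured barrier and stromal cells, was a low-count gene. It had 0.805, 0.910, 1.40 and 0.945 CPM with LPS (22 to 36 reads) and 0.761, 0.624, 0.537 and 0.461 CPM in control (11 to 24 reads). The lowest LPS culture lay just above the highest control culture. It rose 1.67-fold (log2 0.74 ± 0.26, adjusted p = 0.0215). It was not past the threshold when Control replicate 4 was left out (0.62), without LPS replicate 3 (0.56) and without LPS replicates 3 and 4 (0.51). Il18, a gene for a cytokine that induces interferon-gamma, was at 0.630 to 1.097 CPM with LPS and 0.976 to 1.33 CPM in control, with overlap and a log2 fold change of -0.32 ± 0.21 (adjusted p = 0.249).

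Among the receptor genes, Il1rl1 alone was past the threshold with LPS. It stood at 26.6, 26.4, 24.98 and 28.4 CPM with LPS and at 20.3, 17.3, 20.4 and 17.3 CPM in control. Every LPS culture was above every control culture, a 1.42-fold rise (log2 0.50 ± 0.06, adjusted p = 4.24e-08) that was 0.50 without LPS replicates 3 and 4.

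Il1r1, the signalling receptor gene, was at 210, 214, 216 and 232 CPM with LPS and at 223, 233, 218 and 214 CPM in control. The groups overlapped, and the interval of its log2 fold change ran from -0.09 to 0.04 (adjusted p = 0.523). Il1rap changed by -0.00 ± 0.07 on the log2 scale with an interval from -0.15 to 0.14 (adjusted p = 0.965). Il1r1 had 5544 to 6633 reads per LPS library and 4476 to 7040 per control library, and Il1rap 250 to 335 and 223 to 343 in those groups. Il1r2, the decoy gene, at 18 to 34 reads per LPS library and 14 to 26 per control library, had 0.44 ± 0.25 (adjusted p = 0.175). Sigirr was at 0.741 to 1.21 CPM with LPS and 0.585 to 0.920 CPM in control, with overlap. Its log2 fold change of 0.46 ± 0.22 (adjusted p = 0.0969) was called without Control replicate 1 (0.62), without LPS replicate 3 (0.57) and without LPS replicates 3 and 4 (0.67).

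Most macrophage markers moved the other way from the agonist genes. With LPS 9 of the 12 were lower and 2 higher than in control, with a median log2 fold change of -1.25. Of all genes tested, 20.0% were lower and 22.5% higher. The markers named here were picked after their values were seen. The C1q genes fell furthest, and C1qa summed to 67 reads over the LPS libraries and 767 over the control libraries. Cd14 averaged 42.1 CPM with LPS and 34.2 CPM in control, and Emr1 averaged 21.9 CPM with LPS and 17.6 CPM in control. The part of macrophages in the levels of Il1a, Il1b and Il1rn was not tested. In RNA from whole cultures, fewer cells of a type and less RNA per cell cannot be told apart.

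The comparison of IL-1β with control asked how the cytokine affects transcripts of its own family. The gene for its antagonist fell, that of its signalling receptor fell slightly, and the genes for the IL-33 receptor, IL-33 and the dampening receptor rose, while Il1b itself was not past the threshold. Of the 10 genes 3 rose and 2 fell, where 24.7% of all genes were higher and 23.0% lower, so the number called (5 of 10, against 47.7% of all genes) was near the background. The median log2 fold change of the 10 was 0.34, against 0.01 over all genes. These comparisons share the control cultures with those of LPS.

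Il1b was at 1.23, 1.01, 0.731 and 0.470 CPM with IL-1β, against the control levels of 0.663 to 1.14 CPM. The groups overlapped fully, with 11 to 32 reads per IL-1β library. The log2 fold change was -0.06 ± 0.23 (adjusted p = 0.846), with a 95% interval from -0.54 to 0.41. Il1a was at 1.80, 1.18, 1.57 and 1.62 CPM with IL-1β and 1.02 to 1.43 CPM in control, at 0.38 ± 0.19 (adjusted p = 0.108).

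Il1rn was at 3.46, 3.51, 4.32 and 3.33 CPM with IL-1β, below every control culture (4.64 to 6.87 CPM). It fell 1.62-fold (log2 -0.69 ± 0.14, adjusted p = 2.63e-04). Macrophage markers fell with it, 8 of 12 lower and 1 higher with a median of -0.81, and their part in the fall was not tested. Of all genes tested, 23.0% were lower and 24.7% higher. The genes most like Il1rn over the 12 cultures were Dync1li2 (Pearson r = 0.969), Tnfrsf22 (0.943) and Tmx3 (0.941). The Il1rn to Il1b count ratio was 2.81 to 7.09 in IL-1β cultures, which overlapped the 5.04 to 10.4 of control.

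Il1r1 was at 193, 193, 198 and 198 CPM with IL-1β, below every control culture (214 to 233 CPM). The fall was 1.14-fold (log2 -0.19 ± 0.03, adjusted p = 1.55e-05), with a coefficient of variation of 1.49% between the IL-1β cultures and 3.52% between those of control. A smaller change in size was seen in 53.6% of genes. The genes most like Il1r1 in pattern were Tmx3 (Pearson r = 0.955), Rab31 (0.943) and Dync1li2 (0.936). The accessory chain gene Il1rap was at 12.6, 12.1, 11.2 and 10.94 CPM in IL-1β cultures and at 10.88, 10.38, 10.88 and 10.41 CPM in control. Its groups did not overlap, yet 0.14 ± 0.07 (adjusted p = 0.125) was not past the threshold, and it was called with library size alone (0.19). The Il1rap to Il1r1 count ratio was 0.0553 to 0.0652 with IL-1β and 0.0446 to 0.0498 in control, with no overlap.

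Il1r2 was at 1.38, 0.846, 1.21 and 0.727 CPM with IL-1β and 0.825, 0.742, 0.683 and 0.560 CPM in control. The groups overlapped. Its log2 fold change of 0.58 ± 0.25 (adjusted p = 0.0632) became a call without IL-1β replicate 2 (0.66), without IL-1β replicate 4 (0.71), without LPS replicates 3 and 4 (0.58), with library size alone (0.63) and with the 8 libraries of the 2 groups (0.58). The decoy gene thus passed the threshold in some fits and not in others.

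Il1rl1 was at 33.1, 34.8, 33.7 and 32.4 CPM with IL-1β, above every control culture (17.3 to 20.4 CPM). The rise was 1.78-fold (log2 0.83 ± 0.06, adjusted p = 9.55e-13). Its nearest genes in pattern were Cpne8 (Pearson r = 0.993), Fam222a (0.984) and Slc2a5 (0.984). Mast cells and T cells can carry ST2, and their part in the rise of Il1rl1 was not tested. The 6 mast cell markers summed to 40.3 to 55.7 CPM with LPS, 55.2 to 60.3 CPM with IL-1β and 34.1 to 41.7 CPM in control, nearly all of it from Kit, which other cells also express. The defining genes Cpa3 and Ms4a2 had 3 and 5 reads over the 4 IL-1β libraries and 1 and 2 reads over those of control, and Mcpt1 had 0 in all. Hdc had 51 reads over the IL-1β libraries and 33 over those of control, and Tpsab1 had 1 and 1. Of 7 T and innate lymphoid markers 6 had a row, and their sum was 6.20 to 6.96 CPM with LPS, 5.72 to 6.69 CPM with IL-1β and 13.4 to 14.7 CPM in control. Most of it was Cd4, at a mean of 5.05 CPM with LPS, 4.41 CPM with IL-1β and 12.2 CPM in control, while Cd8a averaged 0.657, 1.09 and 0.740 CPM in these groups and no Cd3 gene reached 0.5 CPM on average.

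Il33 was at 2.19, 1.56, 1.17 and 1.37 CPM with IL-1β (32 to 57 reads), above every control culture (0.461 to 0.761 CPM). It rose 2.61-fold (log2 1.38 ± 0.24, adjusted p = 2.53e-05). Sigirr was at 1.96, 2.07, 1.76 and 1.54 CPM with IL-1β (36 to 51 reads) and 0.920, 0.585, 0.781 and 0.626 CPM in control (15 to 29 reads). Again the groups did not overlap, and the rise was 2.50-fold (log2 1.32 ± 0.20, adjusted p = 3.23e-06).

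Endothelial markers, all 6 of them, were higher with IL-1β (median log2 fold change 1.21) and with LPS (0.84) than in control, and IL-33 and ST2 can be made by endothelial cells. Of all genes tested, 24.7% were higher and 23.0% lower with IL-1β, and 22.5% were higher with LPS. The 7 epithelial and mesothelial markers summed to 16.2 to 20.0 CPM with LPS, 18.8 to 21.0 CPM with IL-1β and 33.8 to 36.6 CPM in control. That sum was mostly Krt8 and Krt18, and the members went both ways: with IL-1β 1 was higher and 3 lower (median log2 fold change 0.21), and Msln averaged 2.77 CPM there and 0.287 CPM in control. The part of these cells in the values of Il33 and Il1rl1 was not tested. Genes most like Il33 were Lonp1 (Pearson r = 0.939), Rin1 (0.937) and Pkm (0.931), and those most like Sigirr were Gpr4 (0.973), Arhgap27 (0.969) and Plau (0.963). Il18 was not past the threshold in this comparison (log2 0.30 ± 0.20, adjusted p = 0.236). It was at 1.15 to 1.82 CPM with IL-1β and 0.976 to 1.33 CPM in control, with overlap.

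**Figure D2:**
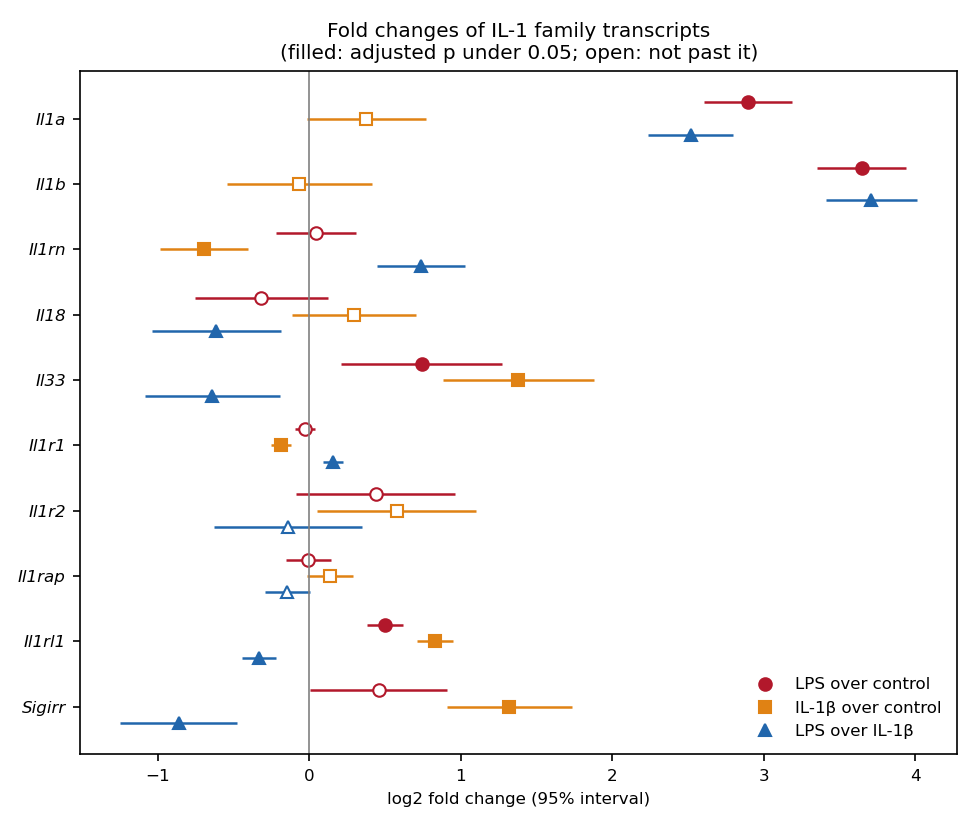
Log2 fold change with its 95% interval (x axis) for each gene (y axis) for LPS over control, IL-1β over control and LPS over IL-1β, filled where the adjusted p was under 0.05. Against IL-1β, LPS values lie right of 0 for Il1a, Il1b, Il1rn and Il1r1 and left of 0 for Il18, Il33, Il1rl1 and Sigirr.

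The direct comparison of LPS with IL-1β divided the family. LPS cultures had more transcript of both agonists, the antagonist and the signalling receptor, and less of the IL-33 receptor and the dampening receptor. They also had less of IL-33 and IL-18, with less certainty. Of the 10 genes 4 were higher and 4 lower, 8 in all, where 21.9% of all genes were called (11.3% higher and 10.6% lower). The number lower was 2 with DESeq2, with the 8 libraries of the 2 groups and at an adjusted p under 0.01. The median of the 10 was -0.14, against -0.002 over all genes.

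Il1b was 13.1-fold higher with LPS than with IL-1β (log2 3.71 ± 0.15, adjusted p = 2.87e-16), and Il1a 5.73-fold (2.52 ± 0.14, adjusted p = 1.35e-13). Both separated every LPS culture from every IL-1β culture. Il1rn was higher by 0.74 ± 0.14 on the log2 scale (adjusted p = 4.77e-04), or 0.57 without LPS replicates 3 and 4, and its groups did not overlap. Il1r1 was higher by 0.16 ± 0.03 (adjusted p = 4.90e-04), or 0.12 without that pair.

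On the other side, Sigirr was 1.82-fold lower with LPS than with IL-1β (log2 -0.86 ± 0.19, adjusted p = 0.00134), and Il1rl1 1.26-fold lower (-0.33 ± 0.05, adjusted p = 5.82e-05). For both genes every LPS culture lay below every IL-1β culture. Sigirr moved to -0.65 (adjusted p = 0.05 as rounded, still past the threshold) without LPS replicates 3 and 4, and Il1rl1 to -0.34.

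Il33 and Il18 were lower with less certainty. Il33, at -0.64 ± 0.22 (adjusted p = 0.0354), overlapped between groups and was not called without IL-1β replicate 1 (-0.43) or 2 (-0.64), without LPS replicate 1 (-0.54), 2 (-0.59) or 4 (-0.61), with DESeq2 (-0.64) or with the 8 libraries of the 2 groups (-0.64). Il18 was at 1.097, 1.08, 1.05 and 0.630 CPM with LPS and at 1.69, 1.82, 1.24 and 1.15 CPM with IL-1β. Its groups did not overlap, and -0.61 ± 0.21 (adjusted p = 0.0345) was not called without IL-1β replicate 1 (-0.54) or 2 (-0.50), without LPS replicate 4 (-0.45), without LPS replicates 3 and 4 (-0.43), with DESeq2 (-0.61) or with the 8 libraries (-0.61). The genes most like Il18 reached lower correlations, Ihh (Pearson r = 0.884), Map7d2 (0.882) and Ednrb (0.876), at 18 to 44 reads per library. Il1r2 (-0.14 ± 0.24, adjusted p = 0.745) and Il1rap (-0.14 ± 0.07, adjusted p = 0.171) were not past the threshold.

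**Figure D3:**
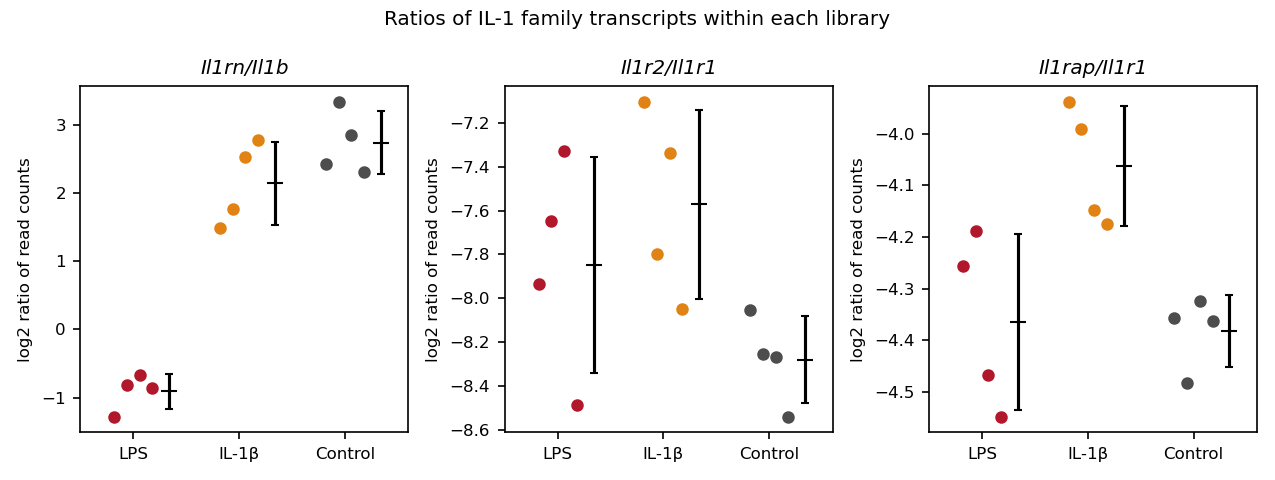
Log2 ratio of read counts within each library (y axis) for Il1rn over Il1b, Il1r2 over Il1r1 and Il1rap over Il1r1, for 4 cultures each with LPS, IL-1β and control, with mean ± SD beside the points. The log2 ratio of Il1rn to Il1b is lower in all 4 LPS cultures than in any of the other 8.

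The count ratios put the same values side by side within a library. On the log2 scale Il1rn over Il1b averaged -0.91 ± 0.26 with LPS, 2.14 ± 0.61 with IL-1β and 2.73 ± 0.46 in control (SD, n = 4 each). Il1r2 over Il1r1 averaged -7.85 ± 0.49 with LPS, -7.57 ± 0.43 with IL-1β and -8.28 ± 0.1995 in control. The first ratio set LPS cultures apart from all others, and the second overlapped between LPS and control. No test was made on the ratios.

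Other genes of the family were mostly silent. Of 11 listed, 4 passed the filter: Il1rl2, Il18r1, Il18rap and Il18bp. The genes of the IL-36 cytokines and their antagonist (Il36a, Il36b, Il36g and Il36rn), Il1f10, Il1rapl1 and Il1rapl2 had between 0 and 6 reads in any library. Il1rl2, the IL-36 receptor gene and neighbour of Il1r1 and Il1rl1 on chromosome 9, was at 11.2, 11.1, 10.8 and 13.1 CPM with LPS, 8.64, 9.39, 9.87 and 10.6 CPM with IL-1β, and 22.8, 22.4, 20.9 and 19.0 CPM in control. Both treated groups lay below every control culture, with log2 fold changes of -0.88 ± 0.07 with LPS (adjusted p = 5.88e-11) and -1.14 ± 0.08 with IL-1β (adjusted p = 4.12e-13).

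Neighbours on chromosome 9 thus did not move together with IL-1β. Il1r1 and Il1rl2 fell there and Il1rl1 rose, while Il18r1 (0.55 ± 0.29, adjusted p = 0.128) and Il18rap (0.27 ± 0.38, adjusted p = 0.584) were not past the threshold. Il18rap, which encodes the accessory chain of the IL-18 receptor, was at 0.695, 0.980, 0.546 and 1.08 CPM with LPS (14 to 31 reads) and 0.476, 0.195, 0.244 and 0.231 CPM in control (5 to 15 reads). It rose with LPS (log2 1.48 ± 0.31, adjusted p = 2.77e-04), and the groups did not overlap. Il18bp, which encodes a soluble protein that binds IL-18, was at 20.5 to 22.8 CPM with LPS, 19.6 to 21.4 CPM with IL-1β and 21.2 to 23.0 CPM in control, and was not past the threshold in either treatment.

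Genes for the maturation and release of these cytokines went both ways. Of 17 tested, LPS raised 4 and lowered 3 (median log2 fold change 0.06), and IL-1β raised 4 and lowered 6 (median -0.02). The shares called were 41.2% with LPS and 58.8% with IL-1β, beside 42.5% and 47.7% of all genes. Casp1, the protease that cuts IL-1β and IL-18, was higher with LPS (0.65 ± 0.08, adjusted p = 2.31e-07) and with IL-1β (0.30 ± 0.09, adjusted p = 0.00498). Gsdmd, which forms the pore of release, was higher with LPS (0.28 ± 0.03, adjusted p = 3.97e-08) and with IL-1β (0.15 ± 0.03, adjusted p = 4.74e-04). Pycard, the adaptor that joins sensors to caspase-1, was lower with LPS (-1.11 ± 0.16, adjusted p = 3.13e-06) and with IL-1β (-0.92 ± 0.16, adjusted p = 3.22e-05). The calpain gene Capn2 was also lower with both (-0.26 ± 0.03 with LPS, adjusted p = 2.62e-09, and -0.33 ± 0.03 with IL-1β, adjusted p = 2.11e-11). With library size alone the number raised by LPS was 7. The number lowered by IL-1β was 3 without Control replicate 1 and 3 without IL-1β replicate 3.

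Signalling genes below the receptors changed in part. Of 26 tested, LPS raised 11 and lowered 3 (median log2 fold change 0.10), and IL-1β raised 9 and lowered 3 (median 0.05). The shares called, 53.8% with LPS and 46.2% with IL-1β, stood beside 42.5% and 47.7% of all genes. Nfkbia, the inhibitor of NF-kB that is also its target, rose by 1.28 ± 0.04 with LPS and by 0.82 ± 0.04 with IL-1β on the log2 scale (adjusted p = 7.36e-21 and 1.58e-16). Nfkb1 rose by 0.78 ± 0.03 with LPS and 0.54 ± 0.03 with IL-1β, and Rela by 0.40 ± 0.03 with LPS and 0.24 ± 0.03 with IL-1β. Tollip, an adaptor that restrains the pathway, fell by 0.39 ± 0.03 with LPS and by 0.45 ± 0.03 with IL-1β on the log2 scale. Of the kinase genes, chosen after their values were seen, the inhibitory Irak3 rose with both (1.104 ± 0.07 with LPS and 0.99 ± 0.07 with IL-1β). Irak2 rose with LPS (0.68 ± 0.10) and was at -0.00 ± 0.11 with IL-1β (adjusted p = 0.996), and it was higher with LPS than with IL-1β (0.68 ± 0.11).

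**Figure D4:**
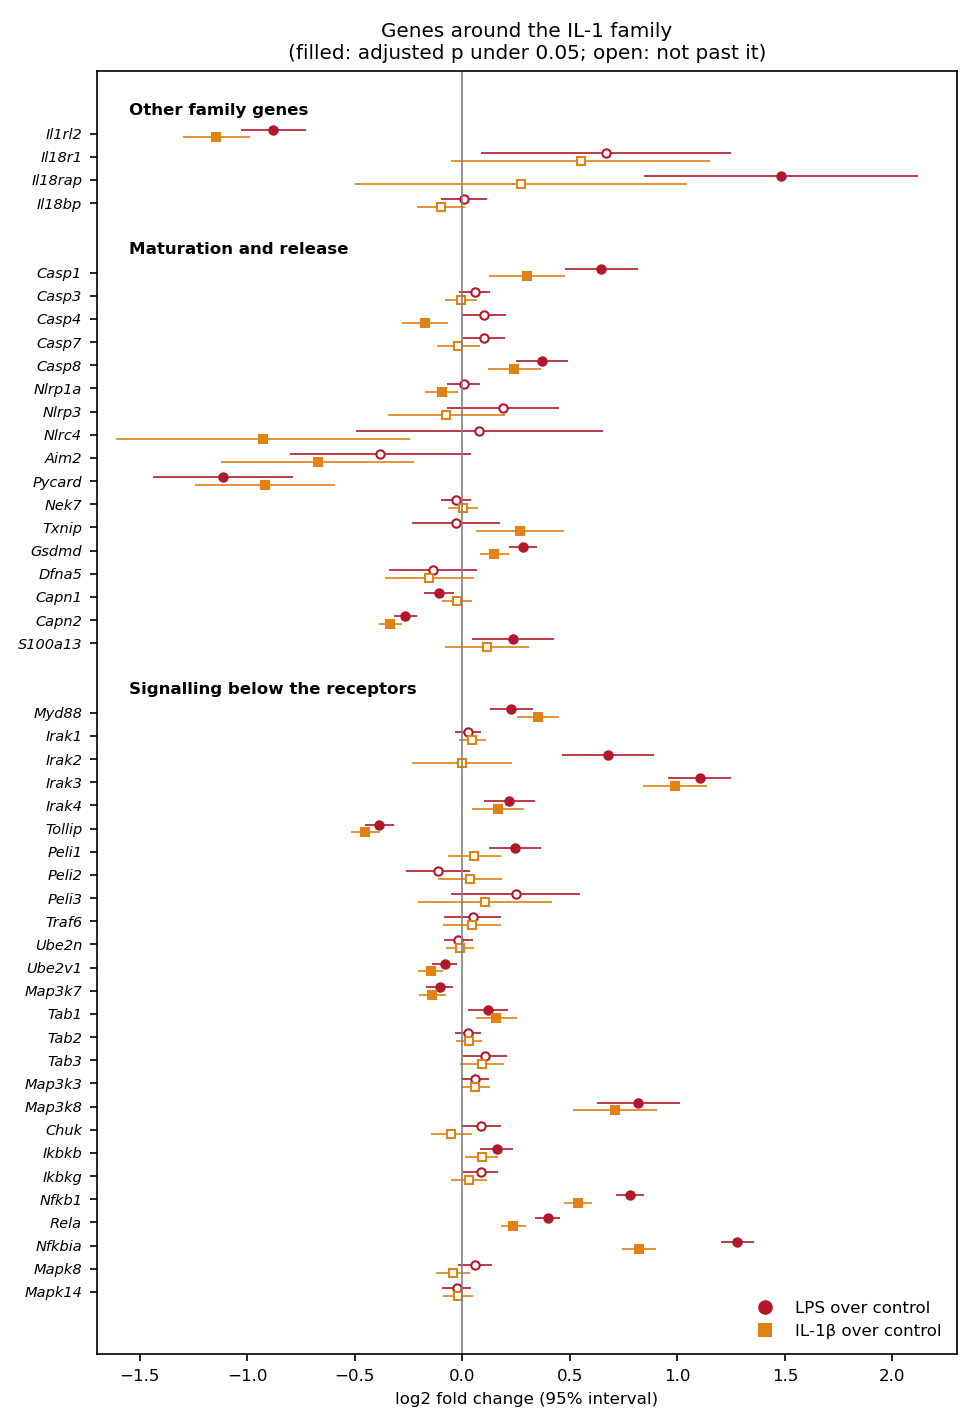
Log2 fold change with its 95% interval (x axis) of genes around the family (y axis, in 3 lists) for LPS over control and IL-1β over control, filled where the adjusted p was under 0.05. Il1rl2 and Pycard lie left of 0 and Nfkbia and Irak3 right of 0 in both comparisons, and Irak2 lies right of 0 for LPS alone.

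Of 20 genes known to respond to IL-1, 19 passed the filter. The list was chosen with earlier results of these data known, so its counts are a description and no independent test. LPS raised 19, or 18 without LPS replicates 3 and 4 (median log2 fold change 2.35 over all libraries), and IL-1β raised 18 (median 1.96), and 0 fell in either at an adjusted or an unadjusted p under 0.05, with DESeq2 or with limma-voom. Lcn2 (4.99 ± 0.04 with LPS and 5.64 ± 0.04 with IL-1β), Sod2 (2.32 ± 0.03 with LPS and 2.09 ± 0.03 with IL-1β), Tnfaip3 (2.05 ± 0.04 with LPS and 1.251 ± 0.04 with IL-1β) and Bcl3 (2.35 ± 0.06 with each) were among them, named for the smallest p in 1 treatment or both. Icam1, the gene most like Il1a in pattern, was the 1 not past the threshold with IL-1β (0.12 ± 0.05, adjusted p = 0.0857), and it rose with LPS (0.86 ± 0.05). Against IL-1β, LPS cultures had 14 of the 19 higher and 1 lower. Over all genes 22.5% were higher with LPS than in control, 24.7% with IL-1β than in control and 11.3% with LPS than with IL-1β.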

How the data were processed

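The deposited table holds raw read counts for gene symbols in 12 libraries. The submitters' processing notes name build Rnor_6.0 and the tools DESeq2, SAMtools and TopHat2 2.1.1. The counting program and annotation are not given in the sources used here. Members and gene lists were chosen with earlier results of these data known.

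Genes were kept by filterByExpr (edgeR 4.0.16, R 4.3.3) and scaled by TMM. A model with the 3 groups was fitted to all 12 libraries (glmQLFit, robust), tested by two-sided quasi-likelihood F-tests and adjusted by Benjamini-Hochberg over 17330 genes, with calls at 0.05. SEs were taken as the absolute log2 fold change over the root of F. CPM are counts over TMM-scaled totals of the genes kept. Totals per library were 20873934 to 32090924, and precision is low for Il1r2, Il18, Il33 and Sigirr, with at most 57 reads per library, and for Il1a and Il1b outside the LPS libraries, with at most 47. How reads shared between gene copies were counted is not given in the sources used here. No replicate pair agreed within sampling noise (chi-square per degree of freedom from 1.81 to 5.11). No row nearly identical to a member with a mean of at least 50 reads was found, and no numbered copy of a member.

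Named genes were all 10 members, the family list, the 3 genes called with the smallest p of each list and treatment, and the 3 genes with the highest Pearson r of log2 CPM (prior count 2) for each member called. The exceptions are marked. Genes searched for the highest r had a mean of at least 2 CPM. LOC, RGD and accession-type symbols, microRNA and small nucleolar RNA names and numbered copies were left out of that search. Promoters and gene order came from RefSeq tables of GRCr8, a build other than that of the counts. The procedure was tested on simulated data in which 200 genes changed. Far fewer genes changed there than were called against control here, so scaling under such wide change was not tested. Alternatives were other scaling factors, other filters, DESeq2 1.42.0, limma-voom (limma 3.58.1), fits on 8 libraries, a replicate block, an adjusted p under 0.01 and each library left out. Leaving out LPS replicates 3 and 4 together was added after seeing the data.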

Additional observations from a re-analysis of the deposited data

Results flagged for a closer look

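Of 30 groups of 4 cultures (10 genes in 3 groups), 1 had a culture far from the other 3, and chance flags about 1 in 20 such groups. Il18 in LPS replicate 4 stood at 0.630 CPM (18 reads), against 1.05 to 1.097 CPM in LPS replicates 1 to 3, a gap of 0.904 of the group's range. Without that culture Il18 was not past the threshold between LPS and IL-1β (log2 fold change -0.45, adjusted p = 0.144).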

How the results depend on the processing

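The number of members called higher with IL-1β than in control was 3, and 5 with library size alone, where Il1r2 and Il1rap were added. The number lower with LPS than with IL-1β was 4, and 2 with DESeq2, with the 8 libraries of the 2 groups and at an adjusted p under 0.01. The cause of these changes was not tested. Leaving out each library in turn gave 2 to 4 for that count, 4 for genes higher with LPS than with IL-1β, 3 to 5 higher and 0 lower with LPS than in control, and 3 to 4 higher and 2 lower with IL-1β than in control. Without LPS replicates 3 and 4 the counts were 4 higher and 0 lower (LPS against control), 4 and 2 (IL-1β against control) and 4 and 3 (LPS against IL-1β). The calls of Il1a, Il1b, Il1rn, Il1r1 and Il1rl1 that the report gives were kept in every alternative, and no call was reversed. With a replicate block the members' counts were as without it (3 and 2, 4 and 0, 4 and 4), and over all genes 8544, 7730 and 4256 were called for IL-1β against control, LPS against control and LPS against IL-1β. Whether replicate numbers pair the cultures is not settled by these values. Of 12 same-numbered pairs 1 had a correlation of deviations over 0.1 (range -0.033 to 0.117). Yet 8 of 12 libraries correlated best with a library of their own number. The stricter filter left out Il1r2. With library size alone 63.4% of calls were higher with LPS than in control and 64.1% with IL-1β than in control, against 53.0% and 51.7% with TMM. Depth limits the low-count genes: log2 SEs were 0.19 to 0.26 for Il1r2, Il18, Il33 and Sigirr, and 0.19 for Il1a and 0.23 for Il1b between IL-1β and control, against 0.03 to 0.07 for Il1r1, Il1rap and Il1rl1.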
